A study of Mus musculus with 8 samples.

Results

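The enzymes that make and rearrange disulfide bonds in the endoplasmic reticulum (ER) were examined in alphaTC6 cells, a mouse line of glucagon-producing pancreatic alpha cells, after knockdown of the transcription factor Klf4. The group was taken by symbol from the gene table and held 9 genes of 55536: Ero1l, Ero1lb, P4hb, Pdia3, Pdia4, Pdia6, Prdx4, Qsox1 and Txndc5. All 9 were found and all 9 passed the filter on low counts. Poly(A) RNA was sequenced from cells that are labelled wild type (WT) and had been reverse transfected for 48 h with RNAiMax Lipofectamine and pooled small interfering RNAs (siRNAs), either directed at Klf4 or scrambled, and each treatment gave 4 libraries. Both groups thus shared the line, the reagent and the time, and no untransfected cells were among the 8 libraries. Scramble libraries were split 2 and 2 over batches 1 and 2, whereas 3 of the Klf4 siRNA libraries belonged to batch 1 and a single one, replicate 3, to batch 2. The labels do not say what set the batches apart. The samples are labelled alphaTC6, whereas the RNA extraction text speaks of islets; the marker levels given below bear on the cell identity. The libraries are called biological replicates in the study's design text, although nothing says whether they came from separate cultures, so the p-values measure the spread between these libraries.

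Secreted proteins form most of their disulfide bonds in the ER. There, protein disulfide isomerases (PDIs) pass a disulfide to the folding protein or exchange a wrong one, and ERO1 oxidases take the electrons from the reduced isomerase and hand them to oxygen, which yields hydrogen peroxide. Peroxiredoxin 4 uses that peroxide to oxidise PDIs in turn, and QSOX enzymes join oxidase and isomerase activity in a single protein. The ERO1 beta form (Ero1lb) is known for its high level in the endocrine pancreas, and many genes of this machinery are targets of the unfolded protein response, the programme that raises ER folding capacity under load.

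The promoters of the genes at the opposite ends of the range below, Ero1lb and Pdia6, are shown because both carry the same element, the ER stress response element (ERSE), which the unfolded protein response factor ATF6 binds together with NF-Y. The ERSE was searched as CCAAT and CCACG with any 9 bases (N) between them, on both strands of the 250 bases before each RefSeq start (GRCm38.p6). Of 32851 such windows, 37 (0.113%) held it. Windows of all 9 genes were found, and those of Ero1lb and Pdia6 alone among the 9 held the full letters; no match says only that these letters are not in that window. The CCAAT letters within it are also the general CCAAT box, so the motifs overlap. The elements, each read 5′ to 3′ on the strand that matched with the fixed letters in capitals, were as follows.
Ero1lb: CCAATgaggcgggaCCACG
Pdia6: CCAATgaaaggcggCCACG
The Ero1lb element lay at chr13:12565682-12565700 on the minus strand, opposite to the gene, with its outer end 201 bases before the RefSeq start. The Pdia6 element lay at chr12:17266491-17266509 on the plus strand, in the direction of the gene, with its outer end 98 bases before the start. The surrounding plus strand sequence, from chr13:12565633-12565873 and chr12:17266339-17266544 and ending before the first base that GENCODE release M21 annotates as transcribed, was as follows, with the fixed letters of the element again in capitals.
Ero1lb: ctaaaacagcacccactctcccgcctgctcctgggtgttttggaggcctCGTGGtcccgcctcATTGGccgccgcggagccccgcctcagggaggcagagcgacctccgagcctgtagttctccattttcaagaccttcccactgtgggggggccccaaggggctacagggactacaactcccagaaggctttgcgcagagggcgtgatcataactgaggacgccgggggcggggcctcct
Pdia6: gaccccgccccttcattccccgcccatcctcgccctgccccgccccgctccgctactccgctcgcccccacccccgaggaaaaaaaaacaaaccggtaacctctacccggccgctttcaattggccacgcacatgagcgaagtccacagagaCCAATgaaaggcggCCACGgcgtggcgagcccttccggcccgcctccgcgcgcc
The letters GGGTGTGG, a form of the motif that KLF4 binds, were in the windows of none of the 9 genes on either strand, against 3.20% of all windows. The shorter CACCC, found in 52.0% of all windows, was in those of Ero1l, Ero1lb, P4hb, Pdia3, Pdia6, Prdx4 and Txndc5.

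Klf4 itself was lower in each of the 4 knockdown libraries than in any control, at 11.5 to 19.8 CPM (the gene's count relative to the scaled library total) against 35.1 to 46.8 CPM, with a log2 fold change of -1.33 ± 0.17 (standard error, SE; edgeR, Benjamini-Hochberg adjusted p = 0.0083). Total counts ran from 45954151 to 64185987 per library. The alpha cell markers Gcg, Irx1, Irx2, Ttr, Pcsk2 and Slc7a2 were all expressed. Gcg, which encodes glucagon, and Slc7a2, an amino acid transporter, were lower after Klf4 siRNA, with log2 fold changes of -0.18 and -0.13 (edgeR adjusted p = 0.0095 and 0.0080), and Irx1, Irx2, Ttr and Pcsk2 did not pass. Between batches Gcg differed far more, and was higher in batch 2 by 2.80 on the log2 scale (edgeR adjusted p = 2.17e-17). Ttr and Irx1 were higher there by 0.60 and 0.13 (edgeR adjusted p = 6.04e-05 and 0.0010), and Irx2, Pcsk2 and Slc7a2 did not pass for batch. Of 7 beta cell markers, Ins1, Ins2, Pdx1 and Ucn3 had 0 counts in all libraries, and Iapp and Slc2a2 had at most 19 and 13 counts. Mafa alone passed the filter, at a mean of 3.17 CPM in both treatments. The list summed to 3.19 to 4.00 CPM in scramble and 3.06 to 3.99 in Klf4 siRNA libraries. Delta and PP cell markers summed to at most 0.448 CPM, acinar and duct markers to at most 10.6, and mesenchymal, endothelial and immune markers to at most 2.99. Few genes of these lists were tested: 1 beta, 0 delta and PP, 2 acinar and duct, and 3 mesenchymal, endothelial and immune markers. None of those tested was called by treatment. The part of alpha cell marker levels in the results below was not tested.

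Per length of RNA, the isomerases stood far above the oxidases. Levels were set per kilobase (kb) of each gene's merged exons so that genes could be compared. P4hb, the founding PDI, was highest in all 8 libraries, with a median of 242 CPM per kb (225 to 281), and Pdia3, the isomerase that works on glycoproteins with calnexin and calreticulin, was next in all 8 at 178 CPM per kb (169 to 197). Pdia4 ranked next throughout, at 81.1 CPM per kb (72.5 to 95.6). Txndc5, Pdia6 and Prdx4 followed with medians of 50.6, 46.7 and 45.6 CPM per kb, and their order changed from library to library. Qsox1 was seventh in every library at 13.1 CPM per kb (12.3 to 14.4), Ero1lb eighth at 7.56 (6.49 to 10.01) and Ero1l last at 5.65 (5.02 to 6.04). P4hb, Pdia3 and Pdia4 had mean shares of 36.1%, 26.5% and 12.1% of the summed CPM per kb, whereas Ero1lb and Ero1l took 1.22% and 0.824%. On this scale P4hb lay at a median percentile of 99.4 among all tested genes, Ero1lb at 62.0 and Ero1l at 55.5.

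After Klf4 siRNA, both ERO1 oxidases rose and 4 of the 5 PDIs fell. Of the 9 genes, 6 passed an edgeR adjusted p of 0.05 (2 higher, 4 lower), against 11.7% of the 16333 genes tested (4.88% higher, 6.81% lower). Among genes with a mean of at least 5 CPM, as all 9 have, 2010 of 10387 were called, with the same 6 of the 9. Without scramble replicate 1 the 6 became 2, and without a batch term 1. The changes were small, from -0.22 to 0.30 on the log2 scale, with a median of -0.08 over the 9 genes and of 4.33e-05 over all tested genes. The median absolute change was 0.11 for the 9 genes and 0.077 for all. Within batch 1 and within batch 2 alike, the Klf4 siRNA libraries lay outside the scramble libraries on the same side for 7 of the 9 genes, all but Prdx4 and Txndc5, against 24.4% of tested genes. Taken batch by batch, 7 of the 9 genes did not overlap in batch 1 (37.5% of tested genes), and for 9 of 9 the single knockdown library of batch 2 lay outside its 2 controls (71.8%). Over all 8 libraries the treatments did not overlap for 3, Ero1l, Pdia3 and Pdia6 (10.5%). These are bulk RNA values, so a change in the number of cells that express a gene and a change in RNA per cell cannot be told apart.

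**Figure D1:**
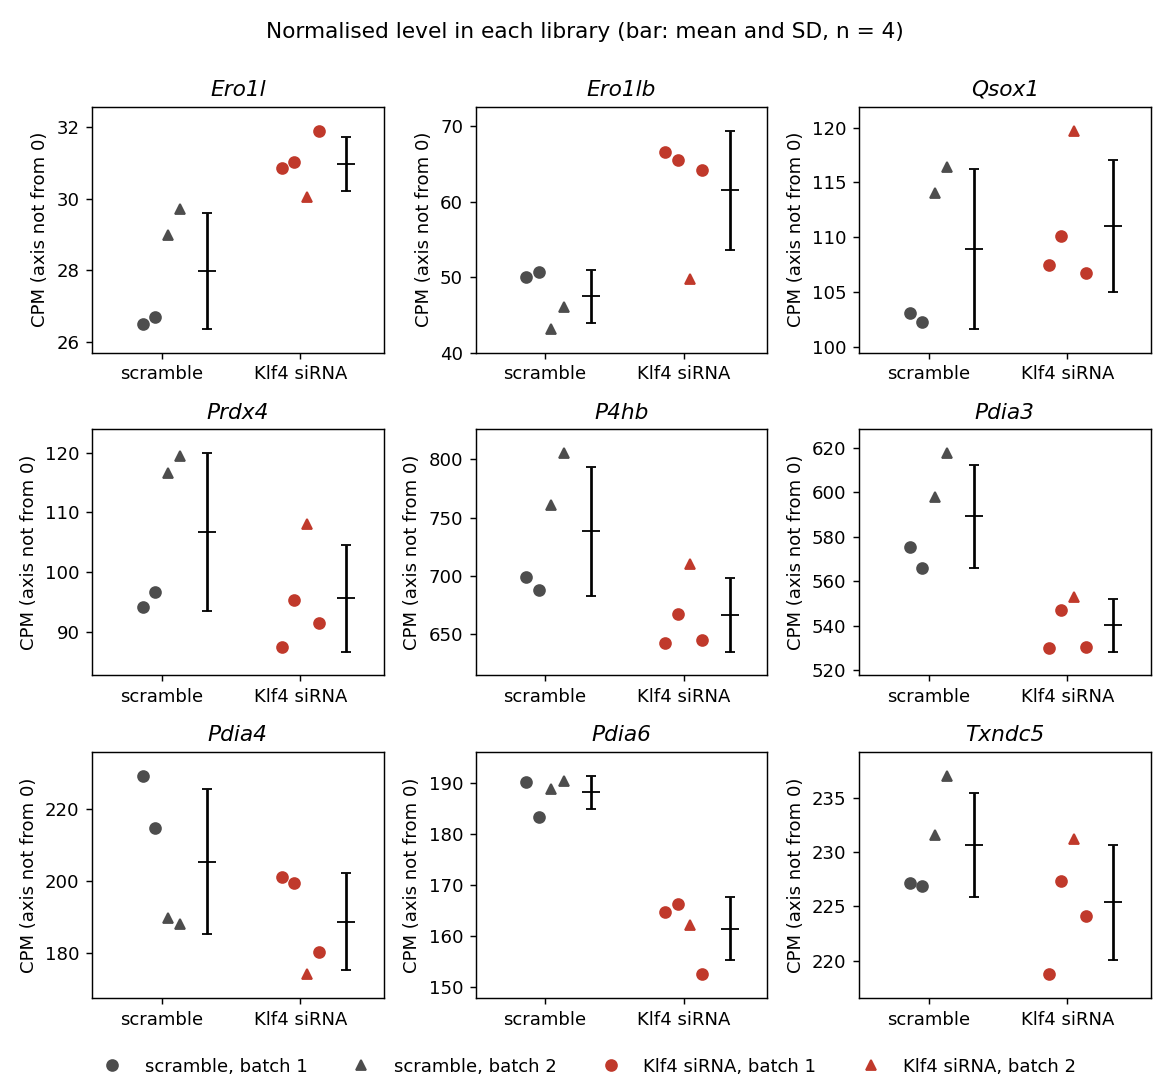
Normalised level (CPM, vertical axes not starting at 0) of each of the 9 genes in each library, with circles for batch 1, triangles for batch 2 and bars for the mean and SD of the 4 libraries of a treatment. Ero1l, Pdia3 and Pdia6 show no overlap between treatments, while the single Klf4 siRNA library of batch 2 is the lowest of its group for Ero1lb, at 49.8 CPM.

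Ero1lb (ENSMUSG00000057069, chromosome 13, 12565874 to 12611396, GRCm38, plus strand), the ERO1 form of endocrine cells, had the largest change of the 9. In batch 1, scramble replicates 1 and 2 had 49.96 and 50.6 CPM, and Klf4 siRNA replicates 1, 2 and 4 had 66.6, 65.5 and 64.2 CPM. Values in batch 2 were 43.2 and 46.1 CPM for scramble replicates 3 and 4 against 49.8 CPM for Klf4 siRNA replicate 3. Every knockdown library was thus above both controls of its own batch, but the batch 2 knockdown lay just below the batch 1 controls, so the treatments overlap when batches are pooled. Klf4 siRNA raised it by 0.30 ± 0.04 on the log2 scale (SE; edgeR adjusted p = 4.55e-05), to 123% of control, and 71 of the 16333 genes (0.435%) were called with a rise at least as large as 0.3. Without a batch term the log2 fold change was 0.38 and the adjusted p 0.091; no fit that left out a library lost the call. The gene's span holds the small nucleolar RNA gene Gm25483 in an intron on the same strand, which shares 0 exonic bases with it and had 1 to 3 counts per library.

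Ero1l (ENSMUSG00000021831, chromosome 14, 45283087 to 45318771), the widely expressed ERO1 alpha form, rose by less. Scramble replicates 1 to 4 had 26.5, 26.7, 29.0 and 29.7 CPM and Klf4 siRNA replicates 1 to 4 had 30.9, 31.0, 30.1 and 31.9 CPM. All 4 knockdown libraries lay above all 4 controls, although the batch 2 knockdown was only slightly above the controls of its batch. Its rise was 0.16 ± 0.04 on the log2 scale (SE; edgeR adjusted p = 0.019). Leaving out scramble replicate 1 or scramble replicate 2 ended the call (edgeR adjusted p = 0.152 and 0.129), at 0.13 and 0.14.

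Qsox1 (ENSMUSG00000033684, chromosome 1, 155776029 to 155812889), the sulfhydryl oxidase that acts late in the secretory pathway and outside cells, did not pass the threshold. Its levels were 103.0, 102.3, 114.0 and 116.4 CPM in scramble replicates 1 to 4 and 107.5, 110.1, 119.7 and 106.7 CPM in Klf4 siRNA replicates 1 to 4. Within each batch the knockdown libraries were above the controls, but the batches differed by more than the treatments. The log2 fold change was 0.07 with a 95% confidence interval of 0.01 to 0.13 (edgeR adjusted p = 0.128). The interval, unlike the p-value, is not adjusted for the number of genes tested. Prdx4 (ENSMUSG00000025289, chromosome X, 155323918 to 155340754), the ER peroxiredoxin, did not pass either. It had 94.1, 96.7, 116.6 and 119.5 CPM in scramble and 87.5, 95.3, 108.1 and 91.5 CPM in Klf4 siRNA replicates 1 to 4, with overlap in batch 1. Its log2 fold change was -0.08 with a 95% confidence interval of -0.15 to -0.02 (edgeR adjusted p = 0.100; 0.038 when Klf4 siRNA replicate 2 was left out).

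Pdia6 (ENSMUSG00000020571, chromosome 12, 17266545 to 17284770), an isomerase that also attenuates ER stress sensors, fell most among the PDIs. Scramble replicates 1 to 4 had 190.1, 183.4, 188.8 and 190.3 CPM, and Klf4 siRNA replicates 1 to 4 had 164.7, 166.3, 162.1 and 152.5 CPM. The treatments did not overlap, and the controls of both batches were close to each other. Pdia6 RNA fell to 86.0% of control, a log2 fold change of -0.22 ± 0.03 (SE; edgeR adjusted p = 4.51e-05), and no alternative fit lost the call.

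Pdia4 (ENSMUSG00000025823, chromosome 6, 47796141 to 47813430), an isomerase with more than the usual number of thioredoxin-like domains, had 229.3, 214.8, 189.6 and 187.9 CPM in scramble replicates 1 to 4 and 201.2, 199.3, 174.0 and 180.2 CPM in Klf4 siRNA replicates 1 to 4. Each knockdown library was below both controls of its batch, but those of batch 1 overlapped the controls of batch 2. The log2 fold change was -0.17 with an SE of 0.04 (edgeR adjusted p = 0.0045). The call was lost when scramble replicate 1 was left out (adjusted p = 0.054) and in a fit with no batch term (0.511).

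P4hb (ENSMUSG00000025130, chromosome 11, 120560298 to 120573253) and Pdia3 (ENSMUSG00000027248, chromosome 2, 121413775 to 121438687) fell by the same small amount. P4hb had 699, 688, 761 and 805 CPM in scramble and 643, 668, 711 and 645 CPM in Klf4 siRNA replicates 1 to 4. Pdia3 had 575, 566, 598 and 618 CPM in scramble and 530.1, 547, 553 and 530.5 CPM in Klf4 siRNA replicates 1 to 4. The treatments did not overlap for Pdia3, and for P4hb they did not overlap within a batch. The log2 fold change was -0.11 with an SE of 0.03 for both (edgeR adjusted p = 0.019 for P4hb and 0.014 for Pdia3). P4hb lost its call without scramble replicate 1 (adjusted p = 0.096), scramble replicate 2 (0.057) or Klf4 siRNA replicate 3 (0.176), and Pdia3 without scramble replicate 1 (0.081) or Klf4 siRNA replicate 3 (0.148). In batch 1 alone neither passed, with adjusted p-values of 0.122 and 0.110 at log2 fold changes of -0.09 for both.

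Txndc5 (ENSMUSG00000038991, chromosome 13, 38500079 to 38528824), a PDI known from endothelial cells and fibroblasts, was the isomerase that did not pass. It had 227.2, 226.8, 231.6 and 237.0 CPM in scramble and 218.7, 227.4, 231.3 and 224.2 CPM in Klf4 siRNA replicates 1 to 4, so the treatments overlapped. The log2 fold change was -0.02 with a 95% confidence interval of -0.08 to 0.03 (edgeR adjusted p = 0.696). An antisense annotation, Gm31834, shares 311 exonic bases with Txndc5 on the other strand and had 45 to 77 counts per library, against at least 10676 for Txndc5.

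**Figure D2:**
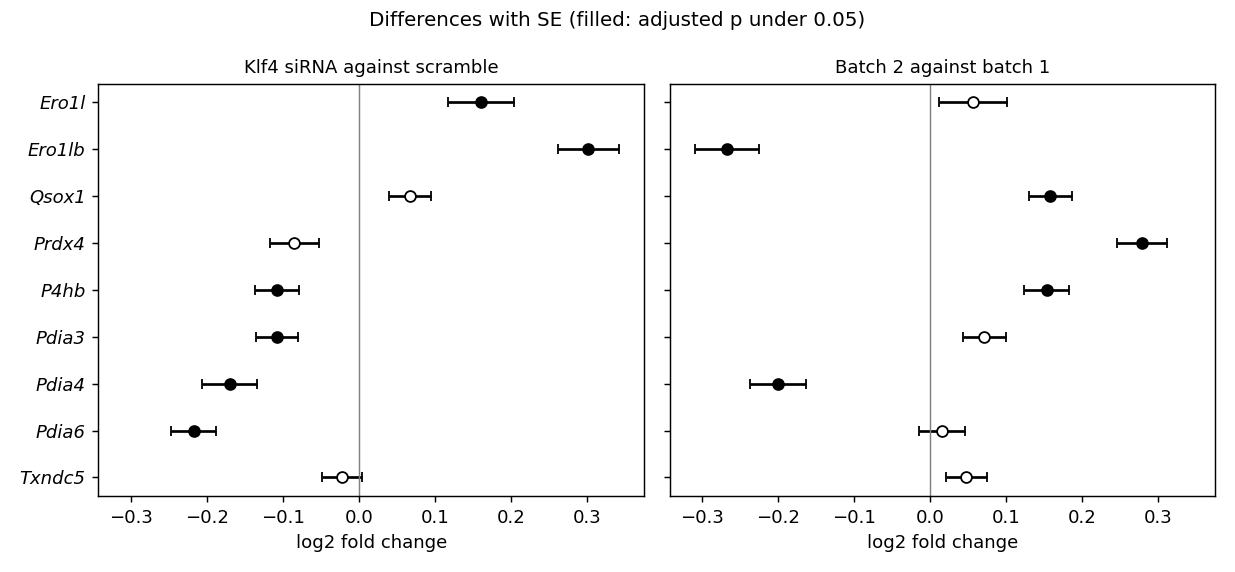
Log2 fold change with SE of the 9 genes for Klf4 siRNA against scramble (left) and for batch 2 against batch 1 (right), from the fit with both terms; filled points have an adjusted p under 0.05. Ero1lb is the highest at left (0.30) and, in this fit, the lowest at right (-0.27); without Klf4 siRNA replicate 3 Pdia4 (-0.23) is below Ero1lb (-0.17).

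Ero1lb was then set against each of the other 8 genes within a library, where scaling between libraries cancels. In all 8 ratios, each of the 4 Klf4 siRNA libraries was above both scramble libraries of its own batch. With batch in the model, Ero1lb gained most on Pdia6 (0.52 on the log2 scale, 1.43-fold) and Pdia4 (0.47), then on Pdia3 (0.41), P4hb (0.41), Prdx4 (0.39), Txndc5 (0.32) and Qsox1 (0.23), and least on Ero1l (0.14). These ratios share their numerator and are a description. The ratio of the ERO1 forms was tested. The log2 ratio of Ero1lb to Ero1l CPM stood at 0.91 and 0.92 in the scramble libraries of batch 1 and at 1.11, 1.08 and 1.01 in its Klf4 siRNA libraries, while batch 2 had 0.57 and 0.63 against 0.73. With batch in the model it rose by 0.14 (two-sided exact permutation test within batches, p = 0.033, n = 4 per group, the smallest that its 30 arrangements can give). As a share of ERO1 RNA per kb, Ero1lb made up 59.96% and 60.1% in scramble libraries of batch 1, 63.1%, 62.6% and 61.5% after Klf4 siRNA there, and 54.2% and 55.2% against 56.8% in batch 2. Ero1lb was therefore the more abundant ERO1 transcript in all 8 libraries.

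**Figure D3:**
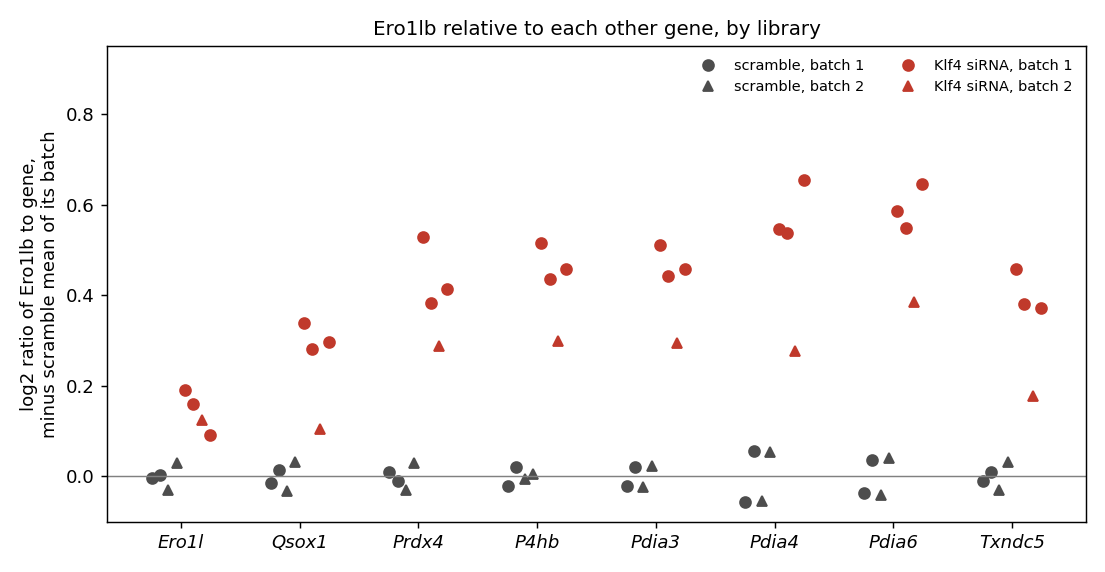
Log2 ratio of Ero1lb to each of the other 8 genes in each library, minus the mean ratio of the scramble libraries of the same batch. Circles are batch 1 and triangles batch 2; every Klf4 siRNA library lies above the scramble libraries of its batch, and the shift is smallest against Ero1l (0.14 with batch in the model).

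Several of these enzymes also differed between batches. Of the 9 genes, 5 differed between batches at an edgeR adjusted p under 0.05, against 32.7% of tested genes: Prdx4, Qsox1 and P4hb were higher in batch 2, with log2 differences of 0.28, 0.16 and 0.15 (adjusted p = 1.18e-06, 0.00019 and 0.00043), and Ero1lb and Pdia4 were lower, at -0.27 and -0.20 (adjusted p = 5.80e-05 and 0.00046). Ero1l, Pdia3, Pdia6 and Txndc5 did not pass, at 0.06, 0.07, 0.02 and 0.05. For Ero1l the batch difference was larger, at 0.14, both in scramble libraries alone and when Klf4 siRNA replicate 3 was left out (edgeR adjusted p = 0.052 and 0.064). All 5 called genes also passed when scramble libraries alone were compared. The batch difference of Ero1lb was smaller there, at -0.17, and also -0.17 without Klf4 siRNA replicate 3, whereas that of Pdia4 was -0.23 in both fits. The libraries of the 2 batches did not overlap for 5 of the 9, Ero1lb, P4hb, Prdx4, Qsox1 and Txndc5, against 29.4% of tested genes. Ero1lb was the only gene of the 9 that rose after Klf4 siRNA and was lower in batch 2 with both tests passed, a combination found for 1.44% of tested genes. P4hb was lower after Klf4 siRNA and higher in batch 2, as were 1.90% of tested genes, whereas Pdia4 was lower in both. What differed between the batches was not given, so no source of these differences can be named.

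The change after Klf4 siRNA had the same direction in both batches for all 9 genes. The share of all tested genes with the same direction was not computed, so this count is a description. For Ero1lb the change was 0.38 within batch 1 and 0.16 within batch 2, and for Ero1l 0.23 and 0.03. Pdia6 changed by -0.21 and -0.23, P4hb by -0.09 and -0.14, Pdia3 by -0.09 and -0.14, and Pdia4 by -0.20 and -0.12. A separate edgeR fit with an interaction term asked whether the treatment effect differed between batches, and 0 of the 9 genes passed, as did 0 of the 16333 (0%). Unadjusted, 540 genes (3.31%) fell below the threshold of 0.05, Ero1lb and Ero1l among them, but both had an edgeR adjusted p of 0.999. Batch 2 held a single Klf4 siRNA library, which limits this test.

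Beyond the 9 genes, Selenom and Sumf1 fell and Dnajc10 and Txndc11 rose among genes of oxidative folding. The list held 25 further genes: other PDIs, membrane-bound thioredoxin-like proteins (TMX), QSOX2, VKOR reductases, ER peroxidases and selenoproteins. Of these, 19 were tested, and 4 passed the threshold for treatment, 2 higher and 2 lower, against 11.7% of all tested genes (4.88% higher, 6.81% lower), with a median log2 fold change of -0.0072 (4.33e-05 over all). Pdilt, Agr2 and Agr3 had 0 counts in all libraries, and Pdia2, Gpx7 and Gpx8 at most 2, 1 and 1. The ER peroxidases GPX7 and GPX8, which like PRDX4 consume the peroxide made by ERO1, were thus near 0 in these libraries. In batch 2, 10 of the 19 were higher and 1 lower, against 16.8% and 15.9% of tested genes.

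Selenom, a thioredoxin-like selenoprotein of the ER, had the largest change of the list. Selenom (ENSMUSG00000075702, chromosome 11, 3514684 to 3517351) had 21.4, 18.8, 22.9 and 21.5 CPM in scramble replicates 1 to 4 and 11.98, 11.95, 14.5 and 12.3 CPM in Klf4 siRNA replicates 1 to 4, with no overlap. Its log2 fold change was -0.69 with an SE of 0.05 (edgeR adjusted p = 3.35e-08), at -0.73 within batch 1 and -0.61 within batch 2, and it passed in every alternative fit. Sumf1, the ER enzyme that oxidises a cysteine of sulfatases to formylglycine, fell by 0.15 on the log2 scale with an SE of 0.03 (edgeR adjusted p = 0.0030). It went from 98.9 ± 7.11 to 91.3 ± 5.20 CPM (SD, n = 4 each), and lost the call only without a batch term (edgeR adjusted p = 0.408).

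Among the reductases and docking factors, Dnajc10 (ERdj5), which reduces disulfides of misfolded proteins, and Txndc11, a membrane-bound PDI, rose by 0.10 each with SEs of 0.03 (edgeR adjusted p = 0.028 and 0.029). Leaving out scramble replicate 1 (0.225 and 0.136) or 2 (0.096 and 0.134) ended both calls, as did Klf4 siRNA replicate 2 for Dnajc10 (0.074) and Klf4 siRNA replicates 1 (0.051) and 3 (0.083) for Txndc11. With scaling by library size alone their adjusted p-values were 0.073 and 0.062, and without a batch term 0.649 and 0.184. Exons of Txndc11 share 75 bases with Snn on the other strand, and since the use of strand in counting was not stated, reads there cannot be told apart. Erp44, which retains ERO1 in the ER, had a log2 fold change of -0.09 with an SE of 0.04 and did not pass (edgeR adjusted p = 0.120). Tmx1, Tmx2, Tmx3 and Tmx4 lay between -0.05 and 0.0041, Pdia5 at 0.00088 and Qsox2 at 0.014, none of which passed.

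Chaperones and sensors of the unfolded protein response were listed because PDIs belong to its targets. All 20 genes were tested, and 3 passed, all of them higher, where 11.7% of all tested genes were called and 4.88% called higher. The median log2 fold change of the 20 was -0.012. Xbp1, the transcription factor spliced by IRE1, rose by 0.12, Eif2ak3 (PERK), a stress sensor kinase, by 0.11 and Canx, the lectin chaperone that works with Pdia3, by 0.11, with SEs of 0.03 each (edgeR adjusted p = 0.011, 0.029 and 0.018). Without scramble replicate 1 their adjusted p-values were 0.051, 0.075 and 0.156, and without scramble replicate 2 they were 0.104, 0.144 and 0.077. Canx also lost its call without Klf4 siRNA replicate 2 (0.064), and Eif2ak3 without scramble replicate 3 (0.060) or Klf4 siRNA replicate 1 (0.073), 2 (0.072) or 3 (0.150). Without a batch term the adjusted p-values of Xbp1, Eif2ak3 and Canx were 0.590, 0.745 and 0.164, and with library size alone that of Eif2ak3 was 0.081. Hspa5 (BiP), the main ER chaperone, went from 735 ± 27.5 to 762 ± 29.6 CPM (SD, n = 4 each; log2 fold change 0.05, edgeR adjusted p = 0.392). Hsp90b1, Calr, Ddit3 and Atf4 had log2 fold changes of 0.04, -0.00053, -0.02 and -0.06, and none passed.

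**Figure D4:**
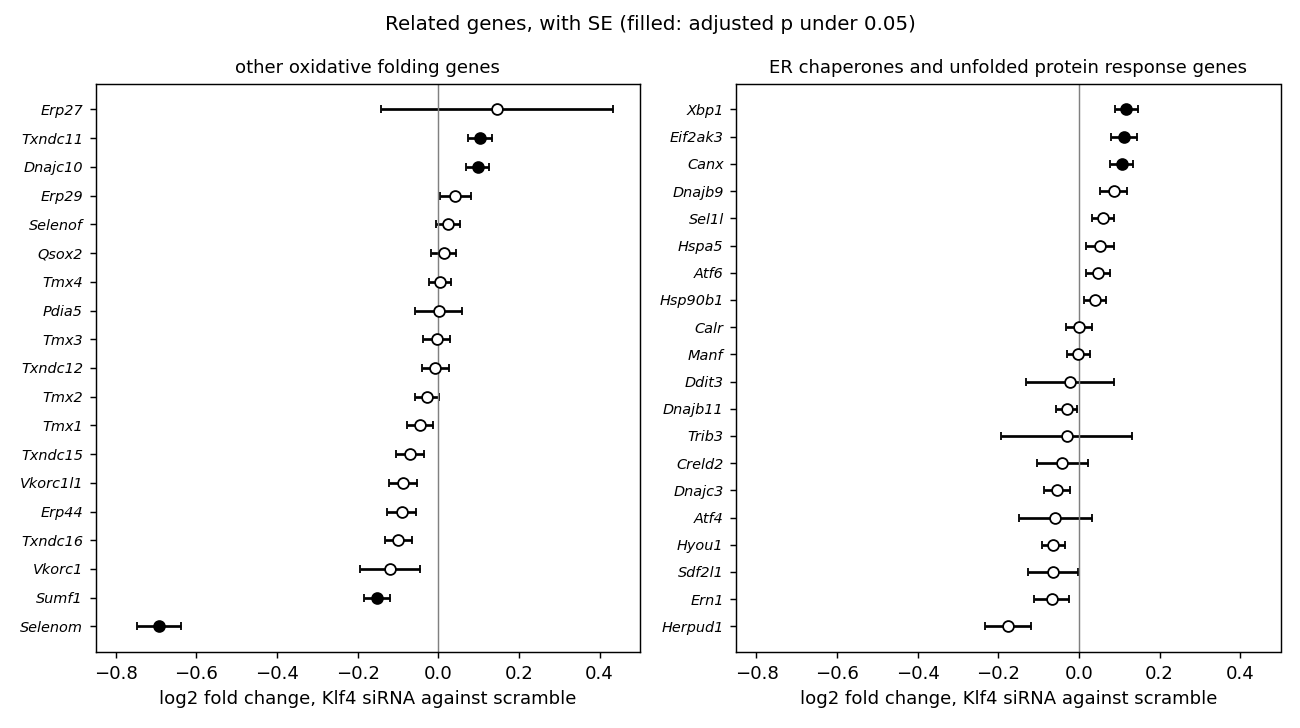
Log2 fold change with SE for Klf4 siRNA against scramble of the 19 tested further oxidative folding genes (left) and the 20 ER chaperone and unfolded protein response genes (right); filled points have an adjusted p under 0.05. Selenom stands apart at -0.69, and the other tested genes with an adjusted p under 0.05 lie between -0.15 and 0.12.

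Genes that carry the ERSE of the promoters printed above were compared with Ero1lb and Pdia6. The element was in a window of 35 genes, of which 19 were tested, and 4 of these were called: Ero1lb and Canx higher, Pdia6 and Acacb lower. Acacb, which encodes a mitochondrial acetyl-CoA carboxylase, had a log2 fold change of -0.30 with an SE of 0.04 (edgeR adjusted p = 8.79e-05). The 15 others, among them Hspa5, Hsp90b1, Calr, Dnajc3, Creld2, Derl3 and Syvn1, did not pass, and the median of the 19 was 0.051. Ero1lb and Pdia6 are among the 9 genes described here, and without them 2 of 17 were called (11.8%), a share near the 11.7% of all tested genes. Between batches, 5 of these 17 were lower in batch 2 (Creld2, Derl3, Syvn1, Xlr3a and Xlr3c) and 1 higher (Hsp90b1), against 15.9% and 16.8% of all tested genes; reads of Xlr3a and Xlr3c, members of a multigene family, may be split between copies.

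The genes whose level followed Ero1lb most closely over the 8 libraries were Ahi1, Nrbp1, Slc44a2, Entpd6 and Pnrc2, among 9338 other genes with a mean of at least 10 CPM. Pearson's r of log2 CPM was 0.99, 0.98, 0.98, 0.98 and 0.98, and with any single library left out it stayed at 0.97 or more. The libraries differ in treatment and batch, so these values describe a common pattern over both. Nrbp1 and Entpd6 also rose after Klf4 siRNA, with log2 fold changes of 0.14 and 0.15 (edgeR adjusted p = 0.0048 and 0.0026), and were lower in batch 2, at -0.13 and -0.14 (adjusted p = 0.0036 and 0.0015). Ahi1, Slc44a2 and Pnrc2 did not pass for treatment, at 0.10, 0.07 and 0.08.

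Among the 9 genes themselves, P4hb, Pdia3, Prdx4 and Txndc5 went up and down together over the 8 libraries, with Pearson's r of log2 CPM from 0.84 to 0.96 between pairs. Ero1lb ran against them, with r from -0.88 to -0.79, and at -0.77 against Pdia6. Pdia4 followed neither, at -0.0014 with Ero1lb and -0.17 with P4hb, while it stood at -0.74 with Ero1l and -0.79 with Qsox1. These are descriptions over libraries that differ in treatment, batch and depth.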

How the data were processed

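The authors deposited raw gene counts as whole numbers for 8 libraries. The submitters' processing notes name FastQC, STAR, featureCounts, DESeq2 and mm10 without roles or versions; the use of strand was not stated. All 55536 genes matched GENCODE release M21 (GRCm38). Promoters came from RefSeq (GRCm38.p6), with Ero1l and Ero1lb matched through synonyms.

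Genes kept by filterByExpr (16333) were scaled with TMM (factors 0.964 to 1.02) and tested two-sided in edgeR 4.0.16 (R 4.3.3) by the robust quasi-likelihood test with terms for batch and treatment, Benjamini-Hochberg adjusted over all tested genes at a threshold of 0.05. SEs are the absolute log2 fold change over the square root of F. Confidence intervals are per gene and not adjusted for the number of genes. CPM use TMM-scaled totals; within-batch changes and correlations use log2 CPM (prior count 2). No libraries agreed within sampling noise (chi-square per degree of freedom at least 10.2). The fit was tested on simulated counts.

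The 9 genes, lists and tests were chosen with earlier results of these data known. Named were the 9 genes, Klf4, called genes of the pathway lists and the 5 genes most correlated with Ero1lb; Acacb and other genes given with values were named after their values were seen. Some alpha cell markers are not reported here. Alternatives were no batch term, batch 1 alone, a block for replicate number, scaling by DESeq2 size factors or library size alone, DESeq2 1.42.0, limma-voom (limma 3.58.1), other filters, scramble libraries alone and each library left out.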

Additional observations from a re-analysis of the deposited data

Results flagged for a closer look

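For each of the 9 genes, the 4 libraries of a treatment were examined for a library far from the others, measured by its gap to the nearest one over the full spread. Among 18 such groups 1 stood out, where chance gives 0.9 if the 4 libraries of a group vary alike. Each group held libraries of both batches, so that figure is only a rough guide. The group that stood out was Ero1lb after Klf4 siRNA. There replicate 3, which alone represents the knockdown in batch 2, was lowest at 49.8 CPM against 64.2 to 66.6 CPM. The gap was 0.861 of the range. The batch 2 controls of Ero1lb, at 43.2 and 46.1 CPM, were also below those of batch 1, at 49.96 and 50.6 CPM. Without this library the rise of Ero1lb was 0.38 on the log2 scale.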

How the results depend on the processing

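The number of genes called by treatment, 1909, became 409 without a batch term, 1232 in batch 1 alone and 3120 with the replicate block added to the batch term, and ranged from 934 to 2021 with single libraries left out (934 without scramble replicate 1, 1012 without scramble replicate 2 and 1232 without Klf4 siRNA replicate 3). Of the 9 genes, 6 were called, against 1 without a batch term (Pdia6) and 2 to 7 with single libraries left out; without scramble replicate 1 the 2 were Ero1lb and Pdia6. With the replicate block, 8 were called, Prdx4 (adjusted p = 0.023) and Qsox1 (0.017) among them. Replicate numbers are shared by the treatments, although replicates 4 lie in different batches. After batch, the deviations of same-numbered libraries had correlations of -0.00053, -0.040, -0.30 and 0.12 for replicates 1 to 4. With so few libraries these values cannot decide whether a shared number marks a pair. Over 17 alternatives the treatment changes of the 9 genes kept their direction, between 0.27 and 0.38 for Ero1lb and between -0.23 and -0.19 for Pdia6. The batch calls of the 9 genes were the same in all 13 alternatives; the batch difference of Pdia6, which was not called, turned to -0.023 with library size alone and ranged from -0.00069 (without Klf4 siRNA replicate 4) to 0.025 with single libraries left out. The count of interactions, 0, ranged from 0 to 13 with single libraries left out (13 without scramble replicate 3, none among the 9 genes). The rise of the Ero1lb to Ero1l ratio was 0.22 without a batch term (exact permutation p = 0.143) and 0.15 in batch 1 alone (p = 0.100, the smallest possible there), and 0.13 to 0.16 with single libraries left out, where no p under 0.05 can be reached. All fits for single libraries left out of batch 2 assume that a lone library varies like the others. Depth did not limit the 9 genes, each with at least 1257 counts per library.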
